A study of Mus musculus with 6 samples.

Results

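The mouse mitochondrial genome carries genes for 13 proteins, 2 ribosomal RNAs and 22 transfer RNAs. These 37 genes were taken by name, as every gene whose symbol begins with mt-, out of 54012 genes listed in an RNA sequencing table of mouse small intestine. The 6 libraries were made from total RNA of 3 mice labelled TLR4ΔIEC and 3 mice labelled wild type (WT), aged 8 to 12 weeks, and the number of mice per genotype comes from the design text. The series title gives the aim: to see what depletion of TLR4 in the intestine does to its gene expression. TLR4 is a receptor of innate immunity that recognises lipopolysaccharide from bacteria. The allele, the driver of the deletion, the strain, the sex and the stretch of small intestine are not stated in the labels, and neither is whether the libraries were selected for poly(A) tails or depleted of ribosomal RNA. Values are in TPM, a transcript abundance per unit of gene length that sums to the same total in each library. Read depth cannot be recovered from TPM and is unknown, so no counting interval is given.

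The mitochondrial genome is a small circle in the matrix of the organelle. Both of its strands are transcribed, by a polymerase of its own, as long precursors that hold many genes. The transfer RNAs lie between most of the other genes, and cutting them out of the precursor frees the messenger and ribosomal RNAs. The proteins are core subunits of respiratory complexes I, III and IV and of the ATP synthase, whose remaining subunits, like the proteins of the mitochondrial ribosome, are encoded in the nucleus and imported. The 2 ribosomal RNAs are the RNA parts of the small and large subunits of that ribosome. In the gut, enterocytes use oxidative phosphorylation to fuel the uptake of nutrients.

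Several facts of the whole data set bear on these genes. Tlr4 had 1.29, 1.22 and 4.81 TPM in the libraries labelled TLR4ΔIEC, against 0.65, 0.57 and 0.70 TPM in WT libraries, so the targeted gene was not lower under the TLR4ΔIEC label (log2 fold change 0.92, standard error 0.40, limma adjusted p = 0.243). The deleted part of Tlr4 is not given, so a value for the whole gene does not check the deletion, and all directions here follow the labels. Alpha-defensins took 5.21% to 18.4% of TPM in the libraries labelled TLR4ΔIEC and 25.3% to 28.7% in WT libraries. The median log2 fold change of the 13458 genes tested was 0.16, and it was −0.10 with TPM rescaled without alpha-defensins and 0.024 with no filter on low genes. TLR4ΔIEC replicate 2 stood apart, with 12221 genes at 1 TPM or more and Rn18s, an 18S ribosomal RNA gene of the cytosolic ribosome, at 12836 TPM, against 13197 to 13634 genes and 3806 to 7032 TPM in the other 5 libraries. Enterocyte markers were present in every library, and none of the 9 cell type marker lists had a gene at 0 in all libraries.

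Mitochondrial genes share sequence with fragments of mitochondrial DNA that were copied into the nuclear genome, and the reads of such a pair can be given to either partner. In the GENCODE M21 transcripts (GRCm38), 13 of the 37 genes had a nuclear copy at 90% identity or more over 50 bases or more, in 18 nuclear genes. The copies that matter here are 7 pseudogenes in 1 block on the minus strand, at chr1:24611535-24616197, a stretch of 4663 bases. In 5 of them every shared base is identical to the mitochondrial gene, so no read that lies within the shared bases can separate the pair. The other copies can be told apart at a few bases only. The first bases of Gm29216 and the matching part of mt-Co1 (subunit 1 of cytochrome c oxidase), and the first bases of Gm28438 and of mt-Nd3 (a subunit of complex I), are shown because they hold every difference within these pairs. They are read 5′ to 3′ along each gene, at chrM:6381-6423 (plus strand) and chr1:24616155-24616197 (minus strand), then at chrM:9459-9491 (plus strand) and chr1:24613087-24613119 (minus strand). Capitals mark the bases that differ.
mt-Co1: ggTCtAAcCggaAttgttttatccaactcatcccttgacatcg
Gm29216: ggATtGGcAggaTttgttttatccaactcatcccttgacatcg
mt-Nd3: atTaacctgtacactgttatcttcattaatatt
Gm28438: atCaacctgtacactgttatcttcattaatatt
Counted from 1 at the 5′ end of mt-Co1, the differences are T1056A, C1057T, A1059G, A1060G, C1062A and A1066T, with the mitochondrial base first. The other 486 of the 492 shared bases are the same. In mt-Nd3 the single difference is T3C, and 344 of 345 shared bases are the same.

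The deposited values divide these pairs very unevenly. Gm28661, the copy of mt-Co2 (subunit 2 of cytochrome c oxidase), held 97.0% to 99.2% of the TPM of the pair over the 6 libraries. Gm28437, the copy of mt-Co3 (subunit 3), held 95.3% to 98.6%, and Gm10925, the copy of mt-Atp6 (a membrane subunit of the ATP synthase), held 88.7% to 96.3%. Gm10222 held 85.9% to 91.9% of the pair with mt-Nd4l and Gm28438 held 63.9% to 84.1% of the pair with mt-Nd3, both complex I subunits. Gm29216, which covers bases 1054 to 1545 of mt-Co1, held 21.7% to 27.1%. Gm28439 is identical to mt-Nd4 over 876 bases and yet is listed at 0 in all 6 libraries. Together the block's copies took 2.82%, 2.84% and 5.20% of TPM in the libraries labelled TLR4ΔIEC, against 3.68%, 3.94% and 4.42% in WT libraries (exact two-sided permutation test, p = 0.6, where 3 against 3 allows no p below 0.1). For mt-Co2, mt-Co3, mt-Atp6, mt-Nd4l and mt-Nd3 the deposited value is therefore the smaller part of a pair, and each is given below with its copy added. No copy outside the block averaged above 3.03 TPM.

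**Figure D1:**
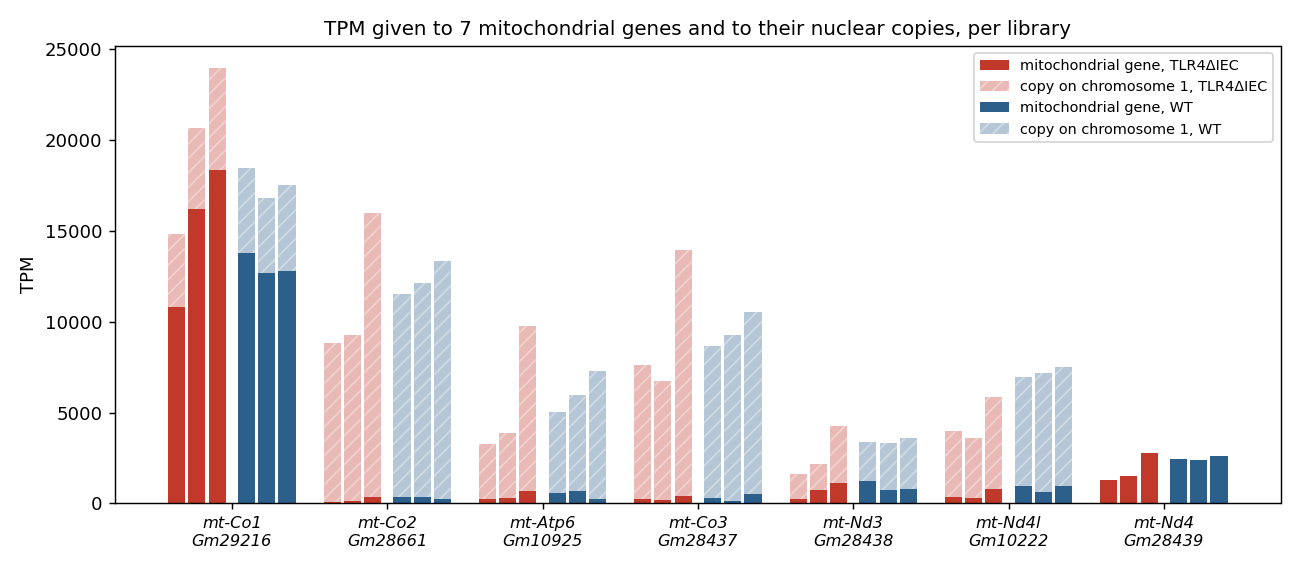
Stacked bars give TPM (linear axis from 0) for 7 mitochondrial genes (solid) and their nuclear copies in the block on chromosome 1 (hatched), 1 bar per library in the order of replicates 1 to 3, with TLR4ΔIEC in red left of WT in blue. The copy held 97.0% to 99.2% of the mt-Co2 pair and 0 of the mt-Nd4 pair.

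The 2 ribosomal RNA genes gave the clearest separation between the genotypes. mt-Rnr1 (ENSMUSG00000064337, chrM:70-1024, plus strand), the 12S RNA of the small subunit, had 961, 1528 and 1486 TPM in the libraries labelled TLR4ΔIEC, against 780, 622 and 602 TPM in WT libraries. mt-Rnr2 (ENSMUSG00000064339, chrM:1094-2675, plus strand), the 16S RNA of the large subunit, had 735, 628 and 1157 TPM in the libraries labelled TLR4ΔIEC, against 478, 415 and 513 TPM in WT libraries. For both genes every TLR4ΔIEC value lay above every WT value. The highest library differed, being TLR4ΔIEC replicate 2 for mt-Rnr1 and TLR4ΔIEC replicate 3 for mt-Rnr2.

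Neither difference passed the threshold over all genes. The log2 fold change was 0.97 for mt-Rnr1 (standard error 0.24, limma adjusted p = 0.111, unadjusted p = 0.00455) and 0.80 for mt-Rnr2 (standard error 0.25, limma adjusted p = 0.152, unadjusted p = 0.0153). Of all genes tested, 0.119% passed an adjusted p of 0.05, with 0.0446% higher and 0.0743% lower in TLR4ΔIEC. An unadjusted p under 0.05 was found for 21.2%, with 18.4% higher and 2.77% lower, and 27.6% had groups that did not overlap, with 24.1% higher and 3.53% lower. Relative to the median gene the differences were 0.81 for mt-Rnr1 and 0.64 for mt-Rnr2. Over 15 fits with all 6 libraries, the main one included, they lay between 0.72 and 0.94 and between 0.50 and 0.77. Most of these fits could hardly move them, so the narrow ranges are little evidence of stability. A scaling factor per library nearly cancels against the median gene. Dropping the trend, robust eBayes and the replicate block leave a fold change as it is. The lowest values came from quantile normalization and the highest from dropping the filter. Leaving out TLR4ΔIEC replicate 1 made mt-Rnr1 pass (log2 fold change 1.18, limma adjusted p = 0.0391, range over alternatives 0.0391 to 0.377), with 367 genes past the threshold in that fit.

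The mitochondrial ribosomal RNAs were also compared with that of the cytosolic ribosome. Summed, they came to 31.2%, 16.8% and 37.6% of the Rn18s value in the libraries labelled TLR4ΔIEC, against 18.4%, 19.2% and 29.3% in WT libraries. Here the groups overlapped (exact two-sided permutation test, p = 0.6), with TLR4ΔIEC replicate 2, the library with the most Rn18s, the lowest of all. Rn18s itself had 5442, 12836 and 7032 TPM in the libraries labelled TLR4ΔIEC, against 6852, 5406 and 3806 TPM in WT libraries, a log2 fold change of 0.60 (standard error 0.40, limma adjusted p = 0.429). The part of library preparation in the ribosomal RNA difference was not tested. The ratio of mt-Rnr1 to mt-Rnr2, neighbours on the same precursor, was 1.31, 2.43 and 1.28 in the libraries labelled TLR4ΔIEC and 1.63, 1.4998 and 1.17 in WT libraries, and did not separate the genotypes (exact p = 0.8).

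Marker genes of several cell types had different summed levels in the same libraries, although no gene of the 9 lists passed the threshold. The summed level of 8 Paneth cell markers was 19439 to 69131 TPM in the libraries labelled TLR4ΔIEC, against 100772 to 114286 TPM in WT libraries, with 8 of 8 genes below 0 in log2 fold change. The sum of 8 B and plasma cell markers was 1132 to 4312 TPM in the libraries labelled TLR4ΔIEC, against 8432 to 9590 TPM in WT libraries, with 5 of 8 below 0. Enterocyte markers (10 genes, 8 above 0) summed to 22340 to 27473 TPM in the libraries labelled TLR4ΔIEC and 18155 to 21060 TPM in WT libraries. Goblet cell markers (7 genes, 6 above 0) summed to 18312 to 27131 TPM in the libraries labelled TLR4ΔIEC and 12216 to 13561 TPM in WT libraries. The smooth muscle, T and NK cell, myeloid, stromal and endothelial, and erythroid sums overlapped between the genotypes. Most of their genes had log2 fold changes below 0, namely 7 of 8 for smooth muscle (median −0.17), 8 of 8 for T and NK cells (−0.66), 8 of 8 for myeloid cells (−0.35), 8 of 8 for stroma and endothelium (−0.31) and 4 of 4 tested for erythroid cells (−0.71). The part of these shifts in the mitochondrial values was not tested, and in whole tissue fewer cells of a type and less RNA per cell cannot be told apart.

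For the 13 protein genes the fold changes were mostly below 0. In 12 of 13 the log2 fold change was below 0, whereas 31.9% of all genes tested were below 0, and their median was −0.45, which is 0.61 below the median gene. As deposited, none passed the threshold, none had an unadjusted p under 0.05, and in none did the 3 TLR4ΔIEC libraries lie apart from the 3 WT libraries. With its copy added, mt-Nd4l had an unadjusted limma p of 0.0292. Its groups then lay apart, lower in TLR4ΔIEC, as did those of 3.53% of all genes tested. Over the 15 fits with all 6 libraries the median lay 0.43 to 0.69 below the median gene. As for the ribosomal RNA genes, most of these fits could hardly move this distance. The outer values came from quantile normalization and from the filter at a mean of 5 TPM. The median log2 fold change itself depended on which library was left out. It was −0.24 without TLR4ΔIEC replicate 1 (9 of 13 genes below 0), −0.29 without replicate 2 (11 of 13) and −0.76 without replicate 3 (12 of 13). Relative to the median gene, these were −0.40, −0.51 and −0.88. The 3 libraries labelled TLR4ΔIEC differed from each other. Replicates 1 and 2 read low and replicate 3 read high: the median over the 13 genes of the log2 deviation from each gene's mean was −0.63, −0.46 and 0.47 in TLR4ΔIEC replicates 1 to 3, and 0.20, 0.19 and 0.31 in WT replicates 1 to 3.

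**Figure D2:**
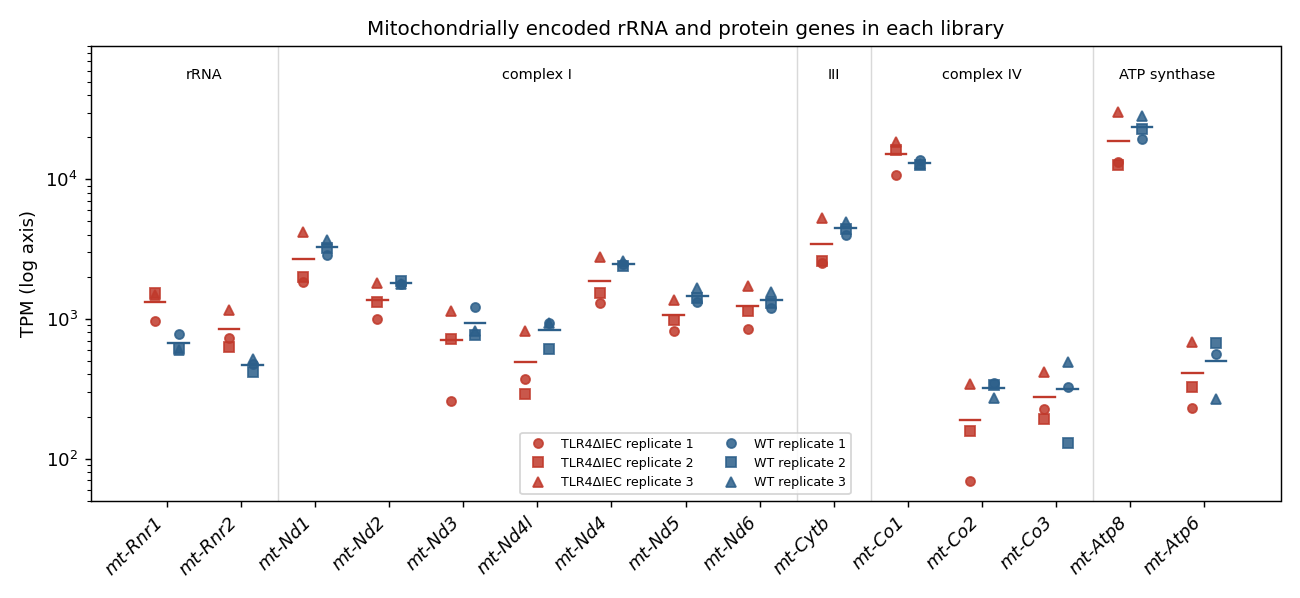
TPM on a log axis for the 2 ribosomal RNA and 13 protein genes, grouped by complex, with 1 point per library (TLR4ΔIEC in red left of WT in blue, a marker shape for each replicate number, bars at the group means). Both ribosomal RNA genes sit higher in all 3 TLR4ΔIEC libraries, whereas among the protein genes TLR4ΔIEC replicates 1 and 2 mostly sit below WT and replicate 3 (triangles) among or above it.

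Complex I, which takes electrons from NADH, has 7 subunits encoded in the mitochondrion. mt-Nd1 had 1831, 1985 and 4207 TPM in the libraries labelled TLR4ΔIEC, against 2845, 3231 and 3701 TPM in WT libraries (log2 fold change −0.38, standard error 0.35, limma adjusted p = 0.573). mt-Nd2 had 991, 1315 and 1796 TPM in the libraries labelled TLR4ΔIEC, against 1788, 1876 and 1791 TPM in WT libraries (−0.45, standard error 0.25, adjusted p = 0.342). In both, TLR4ΔIEC replicates 1 and 2 were below all WT libraries and replicate 3 was not. The SD of mt-Nd2 was 405 TPM in TLR4ΔIEC and 50.3 TPM in WT (n = 3 each). mt-Nd4 had 1298, 1523 and 2774 TPM in the libraries labelled TLR4ΔIEC, against 2470, 2402 and 2601 TPM in WT libraries (−0.50, standard error 0.30, adjusted p = 0.395). mt-Nd5 had 825, 990 and 1370 TPM in the libraries labelled TLR4ΔIEC, against 1314, 1413 and 1656 TPM in WT libraries (−0.49, standard error 0.24, adjusted p = 0.288). For mt-Nd5 replicate 3 lay within the WT range, and for mt-Nd4 it lay above it. No nuclear copy was found for mt-Nd1. The copies found for mt-Nd2, mt-Nd4 and mt-Nd5 averaged 0.02 TPM or less, so next to none of the TPM of these pairs was given to a copy.

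The remaining complex I genes were less even. mt-Nd3 had 257, 715 and 1144 TPM in the libraries labelled TLR4ΔIEC, against 1217, 761 and 817 TPM in WT libraries. Its log2 fold change was −0.61 (standard error 0.52, adjusted p = 0.543), and −0.48 (standard error 0.36) with its copy added. mt-Nd4l had 369, 292 and 821 TPM in the libraries labelled TLR4ΔIEC, against 937, 612 and 942 TPM in WT libraries. This was the lowest adjusted p of the 13 genes (log2 fold change −0.87, standard error 0.40, limma adjusted p = 0.263), and TLR4ΔIEC replicate 3 overlapped WT. Its copy Gm10222, which holds most of the pair, had 3604, 3332 and 5019 TPM in the libraries labelled TLR4ΔIEC, against 6019, 6585 and 6577 TPM in WT libraries. All 3 TLR4ΔIEC values of the copy lay below WT, a pattern seen in 3.53% of all genes tested, and the sum of the pair had a log2 fold change of −0.72 (standard error 0.26, limma unadjusted p = 0.0292, adjusted p = 0.187). mt-Nd6 had 841, 1146 and 1730 TPM in the libraries labelled TLR4ΔIEC, against 1201, 1305 and 1561 TPM in WT libraries (−0.18, standard error 0.29, adjusted p = 0.756). As a whole, complex I genes took 0.641%, 0.797% and 1.38% of TPM in the libraries labelled TLR4ΔIEC, against 1.18%, 1.16% and 1.31% in WT libraries (exact p = 0.4), and the groups still overlapped with the copies added (exact p = 0.3).

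mt-Cytb encodes cytochrome b, the single mitochondrial subunit of complex III, which hands electrons on to cytochrome c. It had 2506, 2594 and 5248 TPM in the libraries labelled TLR4ΔIEC, against 3991, 4436 and 4947 TPM in WT libraries (log2 fold change −0.45, standard error 0.33, limma adjusted p = 0.479). TLR4ΔIEC replicates 1 and 2 were again below all WT libraries, and replicate 3 was the highest of the 6.

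Complex IV, cytochrome c oxidase, passes the electrons to oxygen. As deposited, its mitochondrial subunits spanned the full range of log2 fold changes among the protein genes. With the copies added they spanned only −0.17 to 0.15, and the lowest protein gene was mt-Nd4l at −0.72. mt-Co1, the catalytic subunit, had 10789, 16172 and 18349 TPM in the libraries labelled TLR4ΔIEC, against 13791, 12664 and 12762 TPM in WT libraries. It was the only protein gene with a log2 fold change above 0 (0.17, standard error 0.31, adjusted p = 0.794), which became −0.12 when TPM were rescaled without alpha-defensins, and it was higher than all WT libraries in 2 of 3 libraries labelled TLR4ΔIEC. mt-Co2 had 68.8, 157 and 342 TPM in the libraries labelled TLR4ΔIEC, against 348, 337 and 271 TPM in WT libraries. Its log2 fold change of −1.03 (standard error 0.52, adjusted p = 0.307) was the most negative of the 13, but added to Gm28661 the pair had −0.17 (standard error 0.33). The pair came to 8849, 9264 and 15997 TPM in the libraries labelled TLR4ΔIEC, against 11497, 12116 and 13343 TPM in WT libraries. With 97.0% or more of the pair given to the copy, the deposited fold change of mt-Co2 concerns only the small remainder. mt-Co3 had 226, 193 and 414 TPM in the libraries labelled TLR4ΔIEC, against 325, 129 and 495 TPM in WT libraries, and its log2 fold change was −0.067 (standard error 0.51) alone and −0.081 (standard error 0.34) with its copy added.

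The ATP synthase makes ATP from the proton gradient, and 2 of its membrane subunits are mitochondrial. mt-Atp8, the shortest protein gene at 204 bases, had 13284, 12620 and 30493 TPM in the libraries labelled TLR4ΔIEC, against 19429, 22906 and 28273 TPM in WT libraries (log2 fold change −0.43, standard error 0.44, limma adjusted p = 0.616). As deposited, it had the highest level per length of the protein genes in 5 of 6 libraries, the exception being TLR4ΔIEC replicate 2, in which mt-Co1 was higher. With Gm29216 added, the mt-Co1 pair was also above mt-Atp8 in TLR4ΔIEC replicate 1, at 14800 TPM. mt-Atp6, which is made from the same messenger RNA, had 230, 326 and 682 TPM in the libraries labelled TLR4ΔIEC, against 563, 670 and 268 TPM in WT libraries (−0.33, standard error 0.48, adjusted p = 0.738). With its copy Gm10925 added, the pair came to 3261, 3868 and 9762 TPM in the libraries labelled TLR4ΔIEC, against 5011, 5939 and 7306 TPM in WT libraries (−0.27, standard error 0.44). TLR4ΔIEC replicates 1 and 2 of the pair were below all WT libraries and replicate 3 above them.

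The 2 reading frames overlap by 43 bases, and mt-Nd4l and mt-Nd4 overlap by 7, so that reads there belong to both genes. Both junctions are printed 5′ to 3′ on the plus strand, at chrM:7912-7984 and chrM:10152-10188, because they show which bases the neighbours share. Capitals mark the shared bases, which open with the ATG of the downstream frame.
mt-Atp8 to mt-Atp6: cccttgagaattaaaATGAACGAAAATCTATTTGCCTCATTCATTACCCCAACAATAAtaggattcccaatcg
mt-Nd4l to mt-Nd4: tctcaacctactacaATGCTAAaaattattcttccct
The end of mt-Nd5 also lies across the end of mt-Nd6, which is read from the other strand. The labels do not say whether counting used strand, so reads of mt-Nd6 and of transcripts antisense to it cannot be told apart.

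By class, the mitochondrial genes together took 3.52%, 4.22% and 7.20% of TPM in the libraries labelled TLR4ΔIEC, against 5.15%, 5.38% and 6.12% in WT libraries. The means were 4.98% ± 1.95 in TLR4ΔIEC and 5.55% ± 0.508 in WT (SD, n = 3 each, exact two-sided permutation test, p = 0.7). Nearly all of this was protein genes, at 3.35%, 4.003% and 6.94% in the libraries labelled TLR4ΔIEC and 5.02%, 5.27% and 6.01% in WT libraries (exact p = 0.5). TLR4ΔIEC replicates 1 and 2 were below all WT libraries in both sums and replicate 3 above them. Without replicate 1 the difference in the protein share was 0.035 percentage points, against −0.67 with all 6 libraries. With the 7 nuclear copies added, the whole set took 6.34%, 7.06% and 12.4% of TPM in the libraries labelled TLR4ΔIEC, against 8.82%, 9.32% and 10.5% in WT libraries (exact p = 0.7).

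The ribosomal RNA genes took 0.170%, 0.216% and 0.264% of TPM in the libraries labelled TLR4ΔIEC, against 0.126%, 0.104% and 0.111% in WT libraries. The means were 0.216% ± 0.0474 in TLR4ΔIEC and 0.114% ± 0.0112 in WT (SD, n = 3 each), the groups did not overlap, and p = 0.1, the smallest an exact test of 3 against 3 can give. The ratio of ribosomal RNA to protein gene TPM does not depend on what nuclear genes take of the total. It was 5.06%, 5.38% and 3.81% in the libraries labelled TLR4ΔIEC, against 2.51%, 1.97% and 1.86% in WT libraries. Every TLR4ΔIEC library was above every WT library, the means were 4.75% ± 0.831 in TLR4ΔIEC and 2.11% ± 0.348 in WT (SD, n = 3 each), and the ratio of geometric means was 2.25 (log2 difference 1.17, exact p = 0.1). The log2 difference was 1.15 with the copies added to the protein genes and 1.33 over the protein genes that have no annotated copy in the block. It was 1.06 without mt-Atp8 and 1.01 with each gene weighted by its length. The genes with no annotated copy include mt-Atp8, which lies between mt-Co2 and mt-Atp6, both with copies in the block. The search covered annotated transcripts only, so an unannotated copy of mt-Atp8 there would not be seen. In TLR4ΔIEC replicates 1 and 2 both a larger ribosomal RNA share and a smaller protein share entered the ratio, whereas in replicate 3 both shares were above those of all WT libraries.

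**Figure D3:**
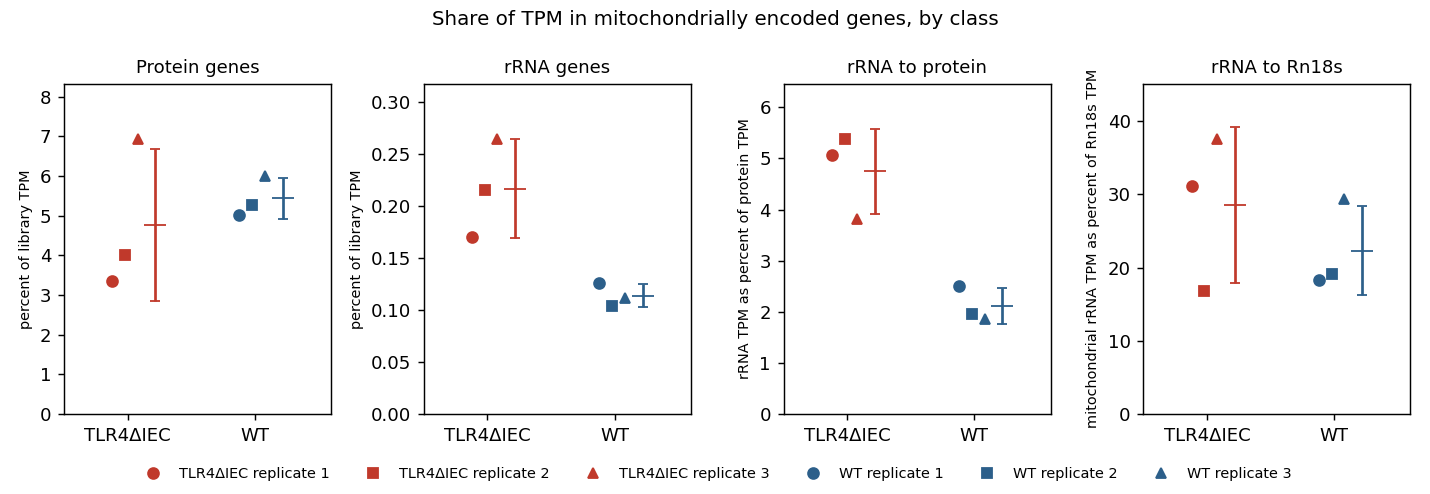
Left to right, the share of library TPM in mitochondrial protein genes, the share in mitochondrial ribosomal RNA genes, ribosomal RNA TPM as a percent of protein gene TPM, and ribosomal RNA TPM as a percent of Rn18s, with 1 point per library and the mean and SD of each group of 3 beside them. The ribosomal RNA share and its ratio to protein genes separate the genotypes, at 0.170% to 0.264% in TLR4ΔIEC against 0.104% to 0.126% in WT and at 3.81% to 5.38% in TLR4ΔIEC against 1.86% to 2.51% in WT, and the other panels overlap.

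In deposited TPM, the make-up of the protein gene pool was much the same in each library in rank. mt-Cytb, mt-Nd1, mt-Nd4 and mt-Nd2 held ranks 3, 4, 5 and 6 in all 6 libraries, behind mt-Atp8 and mt-Co1. mt-Atp8 made up 39.6%, 31.5% and 44.0% of protein gene TPM in the libraries labelled TLR4ΔIEC, against 38.7%, 43.4% and 47.1% in WT libraries. mt-Co1 made up 32.2%, 40.4% and 26.5% in the libraries labelled TLR4ΔIEC, against 27.5%, 24.0% and 21.2% in WT libraries. TLR4ΔIEC replicate 2 had the lowest mt-Atp8 share and the highest mt-Co1 share of the 6. These ranks and shares depend on how reads were divided with the copies. With the copies added to the pool, mt-Co2 averaged 13.7% in TLR4ΔIEC and 13.1% in WT, and mt-Co3 11.2% and 10.0%. mt-Atp6 (6.33% and 6.40%) and mt-Nd4l (5.51% and 7.67%) were then also above mt-Cytb (4.06% and 4.71%). The share of mt-Atp8 was then 21.7% and 24.8%.

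Within the pool, 3 of 13 genes did not overlap between the genotypes, all lower in TLR4ΔIEC. Of all genes tested, 27.6% had groups that did not overlap in TPM, with 24.1% higher and 3.53% lower in TLR4ΔIEC. Those values are for TPM and not for shares of a pool, so they are not a like background for this count. mt-Nd4 was 3.87%, 3.805% and 3.999% of protein gene TPM in the libraries labelled TLR4ΔIEC, against 4.92%, 4.55% and 4.33% in WT libraries. mt-Nd5 was 2.46%, 2.47% and 1.98% in the libraries labelled TLR4ΔIEC, against 2.62%, 2.68% and 2.76% in WT libraries. mt-Cytb was 7.48%, 6.48% and 7.57% in the libraries labelled TLR4ΔIEC, against 7.95%, 8.41% and 8.23% in WT libraries. Each had an exact p of 0.1, the smallest possible, which is 0.325 adjusted over the 13 genes, and shares of 1 pool are not independent of each other. mt-Nd4, mt-Nd5 and mt-Cytb lie in the downstream part of the heavy-strand genes. With the nuclear copies added to the pool, 4 genes were apart. The count moved to 7 without TLR4ΔIEC replicate 3 or without WT replicate 3, and to 5 without WT replicate 1. Leaving a library out can only keep or raise the count, because groups that are apart stay apart.

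mt-Nd6 is the single protein gene read from the light strand, whose long precursor holds otherwise transfer RNAs and antisense sequence. Its log2 ratio to the sum of the 12 heavy-strand protein genes was −5.28, −5.08 and −5.29 in the libraries labelled TLR4ΔIEC, against −5.35, −5.30 and −5.23 in WT libraries. The groups overlapped, with a mean difference of 0.076 (exact two-sided permutation test, p = 0.4), and the difference turned to −0.040 when mt-Atp8 was left out of the heavy-strand sum. The level of the light-strand gene relative to the heavy-strand genes was not shown to differ between the genotypes.

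All 22 transfer RNA genes, 14 in the heavy-strand and 8 in the light-strand direction and 59 to 75 bases long, are listed at 0 in every library. The same held for nearly all other short genes of the table. Among 1206 listed genes with a length of up to 80 bases, mitochondrial ones not included, 1205 were at 0 in all 6 libraries (99.92%). Of genes over 1000 bases, also without mitochondrial ones, 26.08% were. The zeros of the 22 genes give no measure of mitochondrial transfer RNA, and a comparison of the genotypes was not possible for this class.

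The nuclear side of the system was read from lists of 224 tested genes, none of which passed the threshold. Of 74 nuclear subunits of complexes I, III, IV and the ATP synthase, 73 had a log2 fold change above 0, with a median of 0.26, against 0.16 for all genes. Among all 13458 genes tested, 9163 were above 0. Relative to the median gene that list's median was 0.11, and with quantile normalization −0.027, so its direction against the other genes depended on the scaling. Groups did not overlap in 4 of the 74 (5.41%), all higher in TLR4ΔIEC, beside 24.1% of all genes in that direction. Of 80 proteins of the mitochondrial ribosome, 72 were above 0, with a median of 0.23, and 22 had all 3 libraries labelled TLR4ΔIEC above WT, which is 27.5%, beside 24.1% of all genes in that direction. The smallest adjusted p in these lists was 0.0940.

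Examples with the highest mean TPM in each list show sizes of this order. Ndufb9, a complex I subunit, had 305, 430 and 356 TPM in the libraries labelled TLR4ΔIEC, against 261, 327 and 278 TPM in WT libraries (log2 fold change 0.33, standard error 0.18, limma adjusted p = 0.350). Uqcr10 of complex III had 0.33 (standard error 0.20), Cox6a1 of complex IV 0.29 (standard error 0.28) and Atp5b, the catalytic beta subunit of the ATP synthase, 0.13 (standard error 0.20), and all 3 overlapped between the genotypes. Sdhb of complex II, which has no mitochondrially encoded subunit, had 0.23 (standard error 0.20). Mrps21, a small subunit protein of the mitochondrial ribosome, had 161, 221 and 214 TPM in the libraries labelled TLR4ΔIEC, against 140, 157 and 157 TPM in WT libraries. Its groups did not overlap (log2 fold change 0.38, standard error 0.17, adjusted p = 0.245), and those of Mrpl52 of the large subunit did (0.21, standard error 0.16).

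None of the tested genes that act on mitochondrial DNA and RNA passed the threshold, and the list medians are to be set beside the 0.16 of all genes. Likewise, the counts above 0 are to be set beside 9163 of the 13458 genes tested. Of 16 tested genes for transcription and replication of mitochondrial DNA, 13 were above 0, with a median of 0.051. Tfam, which packages the genome and starts its transcription, had 23.2, 19.97 and 25.6 TPM in the libraries labelled TLR4ΔIEC, against 19.7, 24.0 and 19.9 TPM in WT libraries (log2 fold change 0.11, standard error 0.15, limma adjusted p = 0.735). Its groups overlapped. Of 22 genes for processing and stability of mitochondrial RNA, 16 were above 0, with a median of 0.084, and Hsd17b10, part of the enzyme that cuts the 5′ ends of mitochondrial transfer RNAs, had 0.086 (standard error 0.13). Of 20 mitochondrial transfer RNA ligases, 11 were above 0, with a median of 0.014. Lars2, the leucine ligase, was highest in TLR4ΔIEC replicate 2, at 162 TPM, the library in which Rn18s was highest too, and had a log2 fold change of 0.32 (standard error 0.38). Of 9 regulators of mitochondrial biogenesis, 6 were above 0, with a median of 0.11. Esrra, a nuclear receptor that drives genes of oxidative metabolism, had 148, 186 and 181 TPM in the libraries labelled TLR4ΔIEC, against 130, 144 and 120 TPM in WT libraries (0.38, standard error 0.15, adjusted p = 0.219). The Esrra groups did not overlap.

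**Figure D4:**
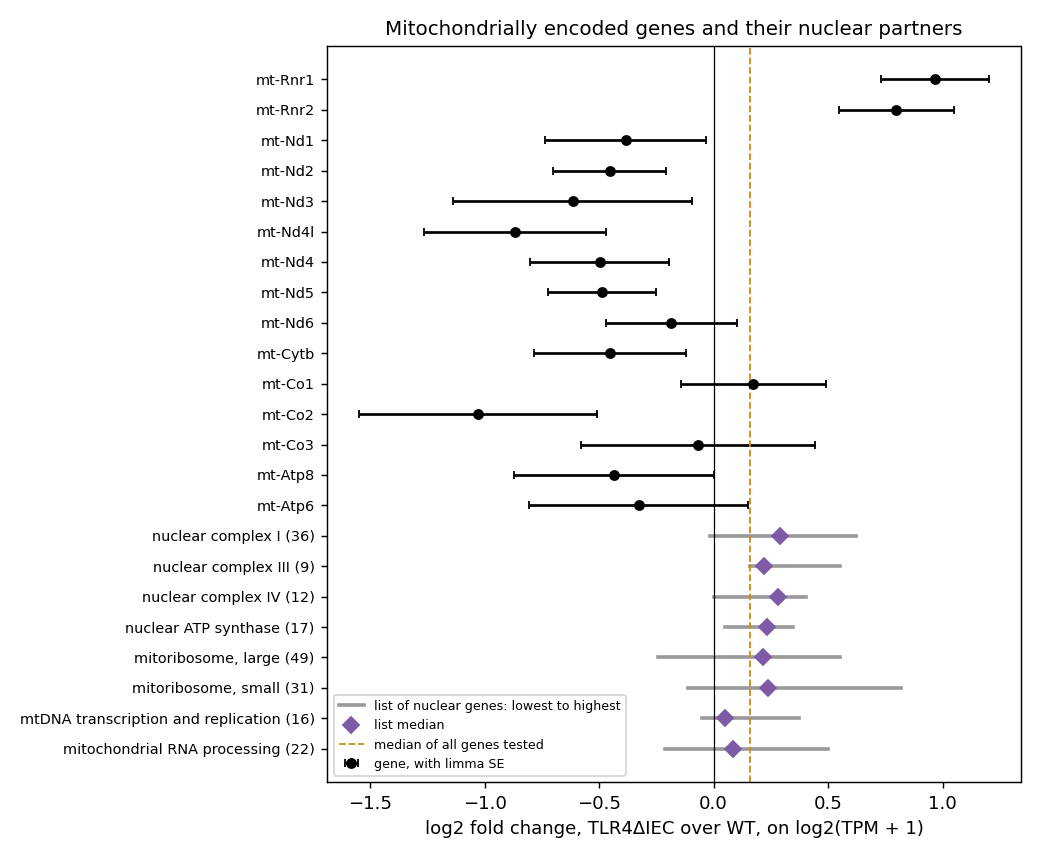
Log2 fold changes (TLR4ΔIEC over WT, on log2(TPM + 1)) of the 15 mitochondrial genes above 0 TPM, as points with the limma standard error, and of the nuclear lists, as the median (diamond) and the range from lowest to highest gene (grey line), with the number of genes tested in brackets. The dashed line marks the median of all genes tested, 0.16, with both ribosomal RNA genes to its right at 0.97 and 0.80 and 12 of 13 protein genes to the left of 0.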

How the data were processed

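Per its headers, the authors' deposited table holds TPM for each gene in each library. It also gives the deposited gene length in bases, and group means of the authors, which were not used. Per the submitters' processing notes the tools were fastp, HISAT and RSEM, on genome build GRCm38.p5, with no versions or settings, and the labels' protocols give total RNA extraction with TRIzol and DNase I treatment. The labels do not say how RSEM shared reads between a mitochondrial gene and its nuclear copy. TPM are relative, and the depth of each library is unknown. The sample titles give genotype and replicate number, and p-values measure the spread between these 3 libraries per genotype.

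The whole table was fitted, keeping the 13458 genes that average 1 TPM or more. The model was that of limma 3.58.1 (R 4.3.3, lmFit, and eBayes with a trend) on log2(TPM + 1), with genotype as its only term. Tests were two-sided, with p-values adjusted by Benjamini-Hochberg and a threshold of 0.05. A log2 fold change is TLR4ΔIEC minus WT on that scale, where the pseudocount makes changes of low genes look smaller. The fit was tested on simulated data. Shares and ratios per library were compared by exact two-sided permutation tests. Nuclear copies were sought with blastn 2.17.0 among the GENCODE M21 transcripts (GRCm38), from which all sequences and coordinates were taken. The members and lists were chosen with earlier results of these data known. Each protein and ribosomal RNA gene is described. Of the 2 genes per nuclear list that the naming rule gives, the one with the higher mean TPM is given. Of 23 RNA processing names, 22 were in the table, and the 17 ATP synthase genes were found under their older symbols.

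Replicate numbers were not used as a block. As alternatives, the pseudocount was set to 0.1 or 5 TPM, and the filter dropped or raised to a mean of 5 TPM. The values were also scaled by median of ratios or by quantiles. Other scalings left out alpha-defensins, Rn18s with the high-TPM genes Cmss1 and Gphn, mitochondrial genes, or the 20 highest other genes. The trend was dropped, robust eBayes and a replicate block were used, and each library was left out in turn. Sums of genes with their copies, length-weighted TPM, protein genes with no annotated copy in the block and the pool without mt-Atp8 were added after seeing the data. Figures were drawn with matplotlib 3.10.9.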

Additional observations from a re-analysis of the deposited data

How the results depend on the processing

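No mitochondrial gene passed the threshold under any alternative with all 6 libraries, and with a library left out the count was 0 to 1 (mt-Rnr1). The count over the nuclear lists was likewise 0, and 0 to 1 with a library left out. Over all genes, 16 passed, against 0 with no filter (3377 had an unadjusted p under 0.05), 7 at a mean of at least 5 TPM, 1 with the replicate block, and 0 to 367 with a library left out. Same-numbered libraries had correlations of −0.037, 0.035 and 0.12 in their deviations, so the numbers were not taken as pairs, and the block changed no call of a mitochondrial gene. Leaving out a library moved the difference in the share of all mitochondrial genes between −1.68 and 0.16 percentage points and in that of protein genes between −1.76 and 0.035. The count of protein genes apart within the pool, which could only stay or rise, lay between 3 and 7. The mt-Nd6 ratio turned to −0.040 without mt-Atp8. The cause of these changes was not tested.

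None of the single genes that changed sign had passed the threshold. Rescaling without alpha-defensins gave log2 fold changes of −0.12 for mt-Co1, −0.24 for Gm29216, −0.16 for Atp5b, −0.20 for Hsd17b10, −0.084 for Mrpl52, −0.063 for Sdhb and −0.18 for Tfam. Quantile normalization gave 0.062 for Gm28661, 0.16 for Gm28437, 0.27 for Gm10925, −0.23 for Hsd17b10, −0.014 for Lars2, −0.11 for Mrpl52, −0.058 for Sdhb and −0.11 for Tfam. Median-of-ratios scaling gave −0.098 for Gm29216, −0.016 for Atp5b, −0.062 for Hsd17b10 and −0.038 for Tfam, and leaving the 20 highest genes out gave −0.096, −0.015, −0.061 and −0.036 for the same 4. With a library left out, mt-Atp6 spanned −0.76 to 0.016, mt-Co3 −0.61 to 0.36, mt-Nd6 −0.46 to 0.063, Gm28437 −0.40 to 0.13, Gm10925 −0.74 to 0.049, Gm29216 −0.081 to 0.16 and Lars2 −0.053 to 0.60. The pool share of mt-Co2 was 0.632 percentage points higher in TLR4ΔIEC with copies added, and with a library left out that of mt-Atp6 differed by −0.368 to 0.0439 and that of mt-Co3 by −0.151 to 0.139. mt-Rnr1, mt-Rnr2, the ribosomal RNA share and its ratio to protein genes kept their direction under every alternative run. Dropping the trend, robust eBayes and the replicate block could not change the direction of a gene. Depth is unknown, so no detection limit is given.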
